A study of Mus musculus with 12 samples.

Results

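H3K4me3, the trimethylation of lysine on histone H3 that marks active and poised promoters, was examined around 10 Sox transcription factor genes, which were chosen by name from the 21951 protein-coding genes of the GENCODE M21 annotation. They were the SoxB genes Sox1, Sox2, Sox3 and Sox21, the SoxC genes Sox4, Sox11 and Sox12, and the SoxE genes Sox8, Sox9 and Sox10. The mark was profiled by CUT&Tag, in which an antibody brings a transposase to the modified chromatin and the DNA released there is sequenced. The tissue was microdissected from wild-type C57BL/6J mouse embryos with no further allele or treatment, and came from the medial, lateral and caudal ganglionic eminences (MGE, LGE and CGE) and the cortex (CTX). The age was taken as embryonic day 12.5, although the protocol in the labels also names day 14.5 without assigning it. Embryos of both sexes were pooled, and the tissue was whole dissected tissue that holds progenitors, neurons and other cells together. The labels list 12 libraries, 3 for MGE, 2 for LGE, 4 for CGE and 3 for CTX, which were taken as 2 replicates of each region, with the last number of a label read as marking a further run of that replicate. The protocol in the labels can also be read as saying that nuclei of the regions were mixed in equal numbers, although each library is labelled with a single region.

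Each region is represented by a single broad peak list, called by the authors after its replicates had been merged. A value below is therefore a single value with no replicate error, and no difference between regions or between genes was set against the spread between replicates. The reads behind a peak are unknown, and in tissue of mixed cells fewer marked cells and less mark in each cell cannot be told apart. MGE and CTX gave 25339 and 21442 peaks of median width 563 and 701 bp, whereas LGE and CGE gave 17284 and 17752 peaks of median width 1168 and 1240 bp. Covered bases were not adjusted for this difference in width. By the study's methods the libraries were sequenced most deeply for CGE and least for MGE, and the part of depth in these numbers and widths was not tested. Covered bases are those under a peak and no more than 5 kb from an annotated transcription start site (TSS) of the gene, and the percentile of a gene is the percent of protein-coding genes with fewer covered bases in the same list. A gene with several starts has a longer window, and covered bases and their percentiles were not adjusted for window length. Levels of the mark, RNA and protein were not measured by these lists.

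Sox proteins bind the minor groove of DNA through an HMG domain related to that of Sry, and bend it. In the developing nervous system the SoxB1 proteins Sox1, Sox2 and Sox3 hold cells in the progenitor state, and Sox21, a SoxB2 protein, acts as a repressor at related sites. The SoxC proteins act when cells leave the cycle and turn on neuronal genes. Sox9 and Sox8 are known from the switch of progenitors to glia, and Sox10 from the neural crest and the oligodendrocyte lineage.

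All 10 genes had a peak within 5 kb of a TSS in MGE, where 65.0% of protein-coding genes did. In LGE, CGE and CTX 9 of the 10 had one, against 64.2%, 64.6% and 63.8% of protein-coding genes, and the gene without a peak was Sox10 each time. Peaks in all 4 lists were found for 9 of the 10 genes and for 61.3% of protein-coding genes. Apart from Sox10, each gene ranked between the 85.8th and the 99.7th percentile in every list. In the 10% of protein-coding genes with the most covered bases stood 9 of the 10 genes in MGE (background 9.99%), 9 in LGE (9.99%), 8 in CGE (10.0%) and 8 in CTX (9.99%). All but Sox8 and Sox10 were there in all 4 lists, 8 of 10 genes against 5.69% of protein-coding genes. These shares describe genes that were picked by name and carry no test. Limiting every list to the 17284 peaks of highest fold leaves LGE whole, takes few peaks from CGE and takes more from the longer lists of MGE and CTX. Then 4 of the 10 genes had a peak in MGE, against 60.4% of protein-coding genes, and 9 in LGE (64.2%), 8 in CGE (64.3%) and 8 in CTX (60.7%). In the most covered 10% there then stood 2 in MGE (9.97%) and 5 in CTX (9.97%).

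**Figure D1:**
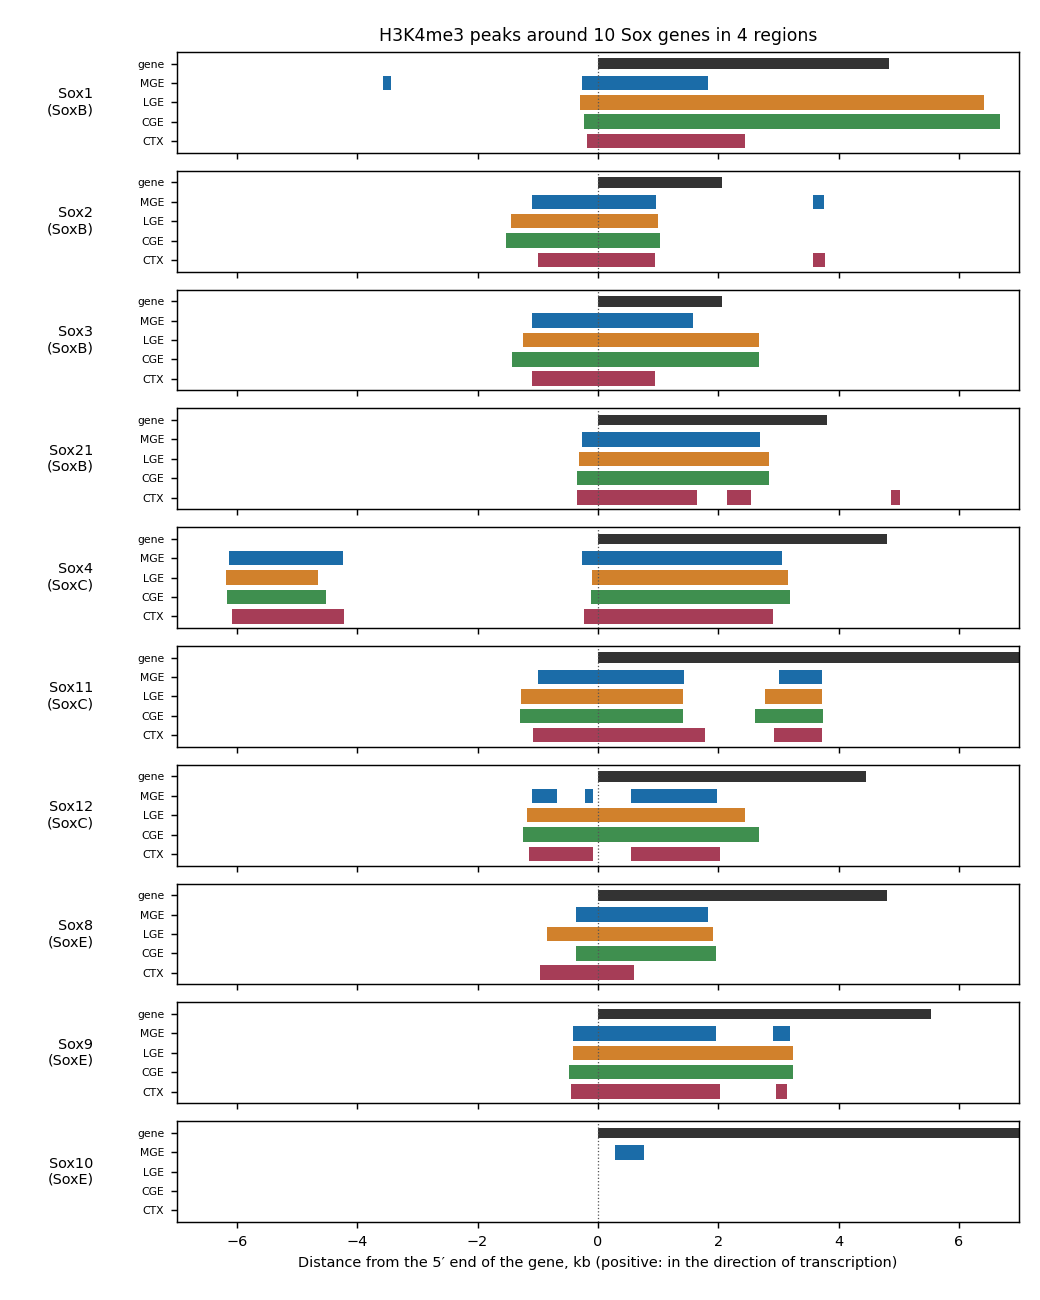
H3K4me3 peaks (coloured bars) of MGE, LGE, CGE and CTX around 10 Sox genes, drawn to scale by distance in kb from the 5′ end of each gene, with the gene itself in black and genes longer than the axis cut at its edge. The LGE and CGE peaks of Sox1 run past the end of the gene, Sox4 has a distal upstream peak in all 4 lists, the MGE and CTX peaks of Sox12 leave its 5′ end free, and Sox10 has 1 short peak in MGE.

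The SoxB genes are each encoded by a single exon. Sox1, which lies on the plus strand of chromosome 8 (GRCm38, chr8:12395295-12400126), had 2240 covered bases in MGE and 2627 in CTX, against 5296 in LGE and 5234 in CGE. LGE and CGE were high and MGE and CTX low, and the highest value was 2.36 times the lowest. In the 13463 protein-coding genes with a peak in all 4 lists the median of that ratio was 1.50, and the ratio of Sox1 ranked at the 88.1st percentile of them. A single peak of 6718 bp in LGE and of 6911 bp in CGE spanned the whole 4832-bp gene, and these peaks were wider than 99.99% and 99.98% of the peaks of their lists. In MGE and CTX the peak stopped 1833 and 2437 bases downstream of the 5′ end. The 5′ edge was nearly fixed, between 189 and 295 bases upstream in the 4 lists, so the difference lay at the downstream edge, which ranged over 4844 bases. Peaks also reached the start of Gm25239, a miRNA gene annotated inside Sox1.

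Sox2, the factor most widely used to mark neural stem cells, lies on the plus strand of chromosome 3 (chr3:34650405-34652461) within an intron of the noncoding transcript Sox2ot. It had 2141 covered bases in CTX, 2222 in MGE, 2434 in LGE and 2562 in CGE. These values were close, with the highest 1.20 times the lowest, a ratio at the 11.2th percentile. Its main peak ended between 950 and 1030 bases downstream of the 5′ end in all 4 lists, and the upstream edge moved from 995 bases in CTX to 1531 bases in CGE. MGE and CTX had another peak, of 177 and 195 bp, that began 3579 and 3575 bases downstream of the 5′ end, beyond the end of the gene. LGE and CGE had none there.

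Sox3, the X-linked member of the same subgroup (minus strand, chrX:60891366-60893430), had 4101 covered bases in CGE and 3914 in LGE, then 2672 in MGE and 2040 in CTX. Its single peak covered the whole gene in LGE and CGE, 76.2% of it in MGE and 45.9% in CTX. Again the upstream edge varied little, over 328 bases, and the downstream edge more, over 1733 bases. Sox21 (minus strand, chr14:118233232-118237030) had 2511 covered bases in CTX, 2971 in MGE, 3172 in LGE and 3199 in CGE, and the highest was 1.27 times the lowest. In CTX the mark was split into 3 peaks and covered 39.4% of the coding sequence, against 100% in the other 3 lists. The starts of 2 noncoding genes lay inside these peaks in every list, Gm14662 in that of Sox3 and Gm4675 in that of Sox21, so the peaks could not be assigned to a single promoter.

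Of the SoxC genes, Sox4 and Sox11 had more than 3 kb covered in all 4 lists and Sox12 did in LGE and CGE. Sox4 (minus strand, chr13:28948919-28953713) had 4084 covered bases in MGE and 3910 in CTX, with 3795 in CGE and 3594 in LGE. It was the most covered of the 10 genes in MGE, at the 99.7th percentile with 57 protein-coding genes above it, and in CTX, at the 99.6th percentile with 93 above it. The highest value was 1.14 times the lowest, a ratio at the 5.39th percentile. CGE stood below MGE, with a CGE to MGE ratio of 0.93, whereas the median of the 13463 genes was 1.40 and the ratio of Sox4 ranked at the 2.01st percentile. Sox4 also had a distal peak, which the 5-kb limit divided. That peak was 1897 bp wide in MGE and 1856 bp in CTX, but 1642 bp in CGE and 1528 bp in LGE. Its nearer edge lay between 4230 and 4658 bases upstream, and no annotated TSS was nearer to it than that of Sox4. Inside the window it gave 771 bases in CTX, 764 in MGE, 483 in CGE and 343 in LGE. The main peak differed less between the lists, from 3139 bp in CTX to 3320 bp in MGE.

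Sox11 (minus strand, chr12:27334264-27342574) had 3839 covered bases in CGE, 3662 in CTX, 3631 in LGE and 3135 in MGE, and it ranked between the 97.9th and the 99.4th percentile. It had 2 peaks in each list, one over the 5′ end and one inside the long single exon, which ended within 3719 to 3743 bases of the 5′ end in all 4 lists. Between them lay a stretch free of peaks in all 4 lists, chr12:27339968-27340793, from 1781 to 2606 bases downstream of the 5′ end. Its GC content was 32.2% with 0.847 CpGs per 100 bases, whereas the stretches of the same length on either side had 56.2% and 56.3% GC and 7.14 and 7.02 CpGs per 100 bases. Repeat-masked bases made up 32.9% of it. Whether base composition or read mapping takes part in this gap was not tested. The coding sequences of Sox4 and Sox11 were covered in full in all 4 lists.

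Sox12 (minus strand, chr2:152393611-152398063) had 1982 covered bases in MGE and 2535 in CTX, against 3621 in LGE and 3909 in CGE, and the highest was 1.97 times the lowest, a ratio at the 80.1st percentile. MGE was the lowest value of the 9 genes other than Sox10 in that list. In LGE and CGE 1 peak ran across its 2 annotated TSSs. MGE and CTX instead had a peak that began 554 bases downstream of the 5′ end in both, and upstream peaks that ended 88 bases before it in MGE and 76 bases before it in CTX. The stretch free of peaks in both, chr2:152397510-152398138, is 629 bases long with 79.3% GC and 16.2 CpGs per 100 bases, and holds no repeat-masked base. The 250 bases before the RefSeq start of Sox12 (chr2:152398047-152398296, minus strand, GRCm38.p6) cross the edge of the upstream MGE peak and are shown for that reason, with the 135 bases inside the MGE peak in capitals.
Sox12: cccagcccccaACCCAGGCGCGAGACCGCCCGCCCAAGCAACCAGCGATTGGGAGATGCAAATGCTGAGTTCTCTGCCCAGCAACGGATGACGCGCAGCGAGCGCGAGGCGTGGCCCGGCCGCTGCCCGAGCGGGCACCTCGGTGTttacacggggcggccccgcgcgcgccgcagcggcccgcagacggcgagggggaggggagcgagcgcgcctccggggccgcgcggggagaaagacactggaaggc
All 250 of these bases were inside the peak in LGE and CGE, and 158 in CTX. They held 35 CpGs, more than 97.0% of the 32851 promoters of the RefSeq table, where the median was 6. The part of the very high GC content in the missing peak at this start was not tested. A peak covered the 5′ end of 8 of 10 genes in MGE, where 76.1% of all protein-coding genes with a peak had their 5′ end covered, and of 8 of 9 in CTX (77.4%). In LGE (80.6%) and CGE (82.0%) it did so for 9 of 9. The exceptions were Sox12 in MGE and CTX, and Sox10 in MGE.

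SoxE genes differed most from each other. Sox9 (plus strand, chr11:112782224-112787760), which is needed for the onset of gliogenesis, had 3715 covered bases in CGE and 3671 in LGE, with 2675 in MGE and 2658 in CTX. It ranked between the 97.5th and the 98.2nd percentile, within the range of the SoxB and SoxC genes. LGE and CGE had 1 peak that ended 3247 and 3239 bases downstream. MGE and CTX had a shorter one and, further downstream, a small peak of 292 and 182 bp inside the stretch that LGE and CGE covered. The start of BC006965, a noncoding gene on the other strand, lay in the main peak in every list.

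Sox8 (minus strand, chr17:25565892-25570686) had 2768 covered bases in LGE, 2326 in CGE, 2199 in MGE and 1568 in CTX. Its rank fell from the 95.5th percentile in MGE and the 94.8th in LGE to the 88.9th in CGE and the 85.8th in CTX. CGE, the list with the most covered bases for most genes, was only 1.06 times MGE here. The CTX peak reached 600 bases downstream of the 5′ end against 1827 to 1961 bases in the other lists, and extended further upstream, to 967 bases, than the 364 to 854 bases of the others. Of the bases covered in any list, 32.9% were covered in all 4, the lowest share of the 9 genes with peaks throughout. Starts of the antisense gene 2810468N07Rik lay in this peak in all 4 lists, and reads from the promoters of both genes cannot be told apart.

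Sox10 (minus strand, chr15:79154908-79165240) had 485 covered bases in MGE and none in LGE, CGE and CTX. The MGE peak lay 278 to 762 bases downstream of the 5′ end, over an internal annotated start, with a fold enrichment of 3.48 and a −log10 q of 1.62, at the 20.1st percentile of the MGE peaks. It covered none of the coding sequence, and 12830 protein-coding genes had more covered bases in MGE. A list without a peak does not show that the mark was absent, because weaker enrichment can fall under the authors' threshold.

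**Figure D2:**
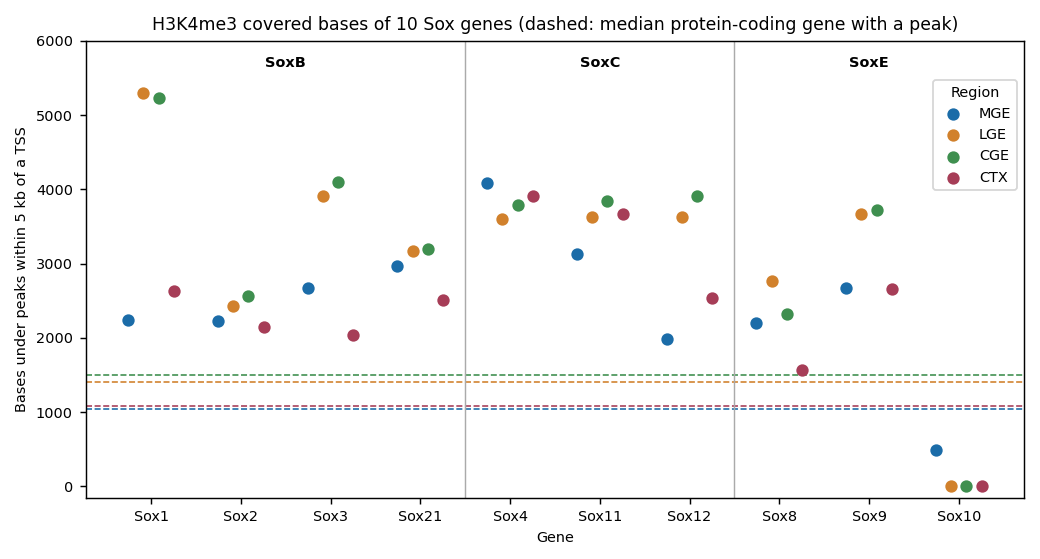
H3K4me3 covered bases, counted within 5 kb of any TSS (vertical axis), for each of the 10 Sox genes (horizontal axis, by group), 1 point per region, with a dashed line at the median of protein-coding genes with a peak in that region (1044 bases in MGE and 1088 in CTX, with 1402 in LGE and 1497 in CGE). All points but those of Sox10 lie above their region's line, and the highest point of a gene is the smallest multiple of its lowest for Sox4, at 1.14 times.

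Compared within each list, the groups stood in the order SoxC, SoxB, SoxE by their median percentile. The SoxC median was 99.4 in CTX, 99.0 in MGE, 98.0 in LGE and 97.9 in CGE. The SoxB median was 95.8 in CTX, 96.8 in MGE, 97.6 in LGE and 97.1 in CGE. SoxE had medians of 85.8 in CTX, 95.5 in MGE, 94.8 in LGE and 88.9 in CGE, which are the values of Sox8 since Sox9 lay above and Sox10 below it. The gap between SoxC and SoxB was widest in CTX and under 1 percentile point in LGE and CGE, and the ranges of these groups overlapped in each of the 4 lists. SoxB stood above SoxE in 4 of 4 lists, SoxC above SoxE in 4 and SoxC above SoxB in 4. With Sox10 left out, a choice made after its values were seen, the SoxE median was 91.7 in CTX, 96.7 in MGE, 96.5 in LGE and 93.2 in CGE, and the order did not change. With windows of 2 kb the SoxB median stood above that of SoxE in 2 lists, and with windows of 10 kb the SoxC median stood above that of SoxB in 1. Ranked by the highest fold of a peak, the SoxC median stood above that of SoxB in 1 list. With every list limited to 17284 peaks by fold, each of these orders held in 3 lists. In CTX Sox4 then ranked at the 53.7th percentile, Sox12 at the 85.4th and Sox11, without a peak, at 0. The SoxB genes ranked there from the 95.0th to the 98.6th, above the SoxC genes.

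**Figure D3:**
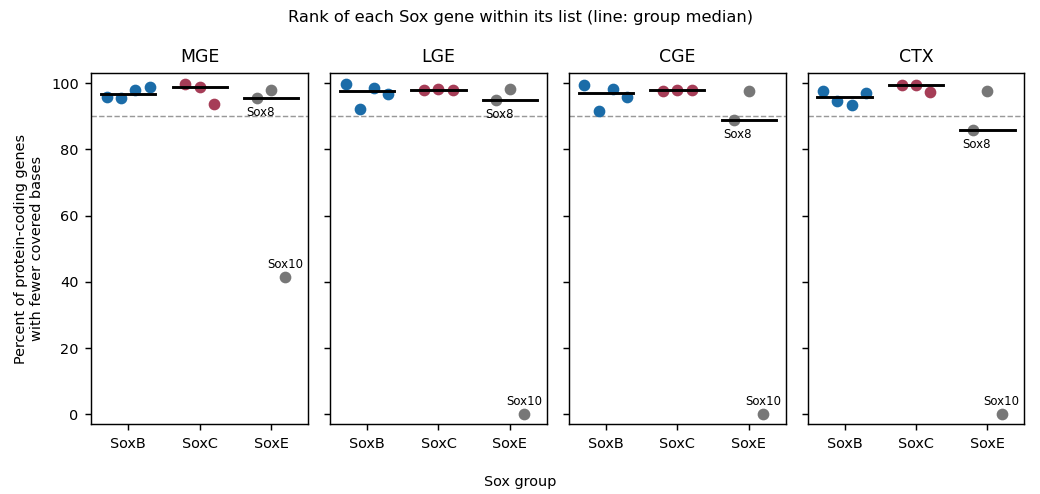
Percentile of each Sox gene's covered bases among all protein-coding genes (vertical axis) by Sox group (horizontal axis), 1 panel per region, with a line at the group median and a dashed line at 90. The SoxC points lie together near the top in LGE and CGE, and Sox8 falls below 90 in CGE and CTX.

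By region, the most covered bases were found in CGE for 6 of the 10 genes (72.8% of protein-coding genes with a peak in any list), in LGE for Sox1 and Sox8 (17.3%), in MGE for Sox4 and Sox10 (4.93%) and in CTX for 0 (4.99%). Bases in both LGE and CGE exceeded those in both MGE and CTX for 7 of the 9 genes with a peak in all lists, near the 86.2% of all such genes, and the exceptions were Sox4 and Sox11. When each gene was instead placed by its percentile within the list, it was highest in MGE for 5 genes, where 32.9% of protein-coding genes with a peak in any list were highest, in LGE for 4 (18.5%), in CTX for 1 (31.4%) and in CGE for 0 (17.2%). Sox2, Sox21, Sox4, Sox8 and Sox10 were the genes that ranked highest in MGE, Sox1, Sox3, Sox12 and Sox9 those in LGE, and Sox11 the one in CTX. Placed by the percentile of the highest fold of a peak, the genes were highest in CTX for 7 (25.1%), in MGE for 2 (28.2%), in CGE for 1 (26.8%) and in LGE for 0 (19.8%). No error can be put on these steps in percentile between lists.

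Several genes had more than 1 peak in their window. Of the genes with a peak, 2 or more peaks were found for 6 of 10 in MGE and 6 of 9 in CTX, where 24.8% and 22.4% of protein-coding genes had them. In LGE and CGE they were found for 2 of 9 each, Sox4 and Sox11, against 16.5% and 17.3%. These counts take in any peak of the window, also one nearer to the start of another gene. Such were the 136-bp MGE peak upstream of Sox1, 1546 bases from the start of Gm45560, and the small peaks beyond Sox2, 806 bases from that of Gm27611 in MGE and 802 in CTX. A pair of the 3 Sox21 peaks in CTX were also nearer to another start, 1352 and 4079 bases from that of Gm4675. The bases shared by all 4 lists, as a percent of those covered in any list, were 78.8% for Sox4, 73.9% for Sox11, 70.6% for Sox2, 69.5% for Sox21 and 68.9% for Sox9. They were 50.7% for Sox12, 49.7% for Sox3, 37.2% for Sox1 and 32.9% for Sox8, and the median of the 13463 genes with peaks throughout was 62.5%.

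The peaks were wide and their fold enrichment was low for their list. Fold is the authors' ratio of reads to the background their peak caller estimated, averaged over a peak, and was ranked only within a list. The main peak of a gene is the one that covers most of its window. Without Sox10, the main peaks of 9 genes were in the widest 10% of all peaks in MGE, LGE and CGE, and 8 of 9 in CTX, where the Sox12 peak of 1469 bp fell just short of the 1493 bp needed. Their folds ranged from 3.17 to 4.44 in MGE and 3.55 to 4.90 in CTX, and from 2.41 to 3.93 in LGE and 2.23 to 5.00 in CGE. All 9 lay under the median fold of all peaks of their list, which was 4.59 in MGE and 5.08 in CTX, with 5.63 in LGE and 5.81 in CGE. They also lay under the median fold of the widest 10% of peaks, 4.90 in MGE and 4.93 in CTX, with 4.07 in LGE and 4.20 in CGE, except for Sox8 in CGE. The lowest folds of LGE and CGE, 2.41 and 2.23, belonged to the longest peaks, those of Sox1. Ranked by the highest fold of a peak, 0 of the 10 genes stood in the top 10% of protein-coding genes in any list.

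**Figure D4:**
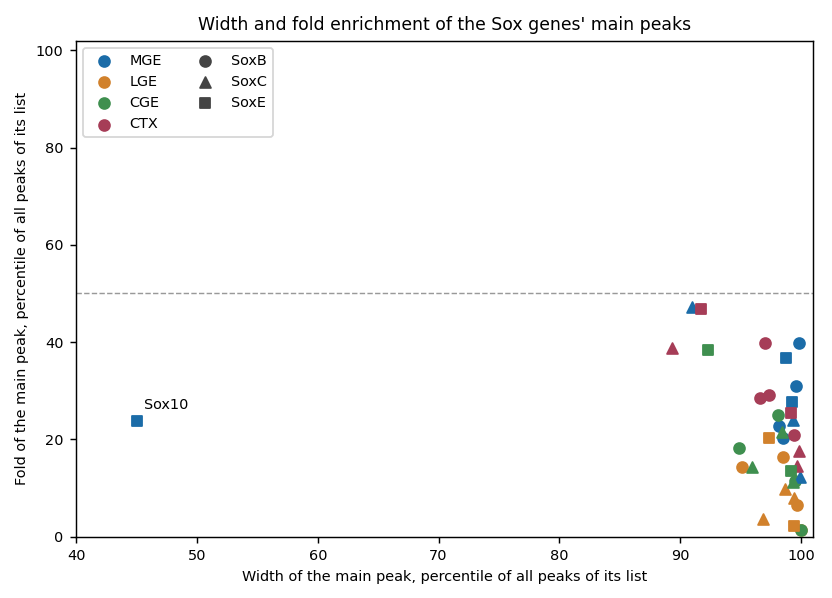
Width (horizontal axis) and fold enrichment (vertical axis) of the main peak of each Sox gene, both as percentiles among all peaks of its list, by region (colour) and Sox group (shape), with a dashed line at the median fold. Every point lies below the dashed line, and all but Sox10 (labelled) lie near the right edge, so that the peaks rank high by width and low by fold.

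The number of CpGs, which the choice by name did not use, was high around all 10 genes. Within 5 kb of the 5′ end lay 472 CpGs for Sox1, 447 for Sox3, 428 for Sox11, 399 for Sox12, 390 for Sox4 and for Sox21, 371 for Sox2, 357 for Sox9, 272 for Sox8 and 231 for Sox10, and the median of 21938 protein-coding genes was 151. All but Sox10 fell in the 10% of genes with the most CpGs, those with at least 251. Sox10 ranked at the 85.3rd percentile in this window but differed close to its start. In the 1 kb around the 5′ end its ratio of observed to chance-given CpGs was 0.166, at the 18.2nd percentile, whereas the other 9 genes had ratios from 0.686 to 0.971, at the 64.0th percentile or above. The mark went with CpGs across the genome too, since median covered bases rose with each successive 10% of genes from the fourth on, in CGE from 824.5 to 2247 bases.

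The genes were also ranked by covered bases within the top 10% by CpG number, which had 251 to 626 CpGs with a median of 288, so that 8 of the 9 Sox genes in it, with 357 or more, were richer in CpGs than most of their class. There Sox4 ranged over the 4 lists from the 88.8th percentile in CGE to the 98.9th in MGE, and Sox11 from the 89.6th in CGE to the 97.0th in CTX. Sox12 ranged from the 71.3rd in MGE to the 90.1st in CGE. Of the SoxB genes, Sox1 ranged from the 79.7th in MGE to the 98.0th in LGE, Sox3 from the 69.1st in CTX to the 92.7th in LGE and Sox21 from the 80.1st in CGE to the 93.7th in MGE. Sox2 was lower, from the 64.2nd in CGE to the 79.3rd in MGE. Sox9 stayed between the 87.7th and the 90.7th, and Sox8 ranged from the 43.5th in CTX to the 78.6th in MGE. Sox10, in the next 10% of genes, ranked at the 9.21st percentile of them in MGE, and in CGE 96.4% of those genes had a peak where Sox10 had none. Within each window the covered bases were richer in CpGs than the uncovered ones for the 9 genes in all 4 lists, for example 10.2 against 1.56 per 100 bases for Sox11 in MGE. For the MGE peak of Sox10 the values were 2.06 and 2.19.

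**Figure D5:**
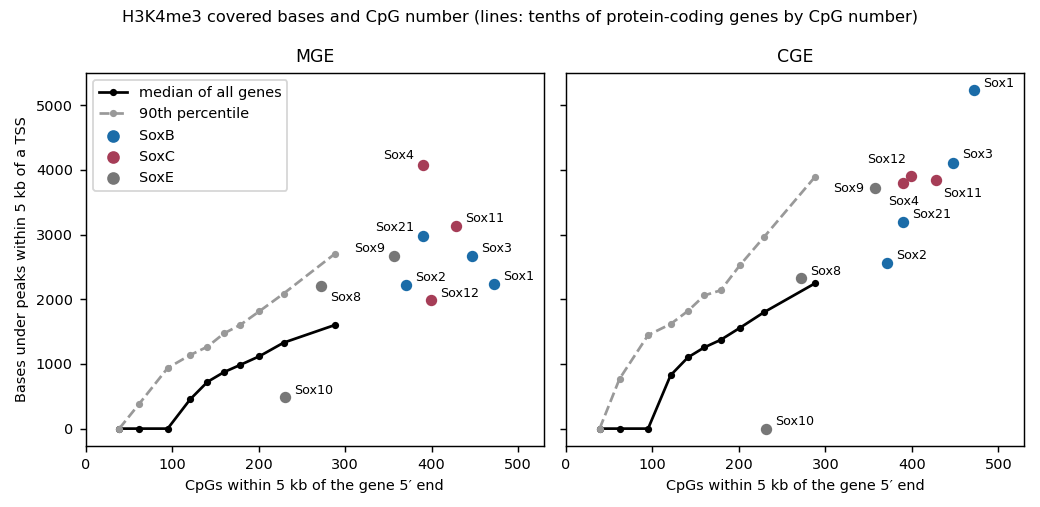
H3K4me3 covered bases, counted within 5 kb of a TSS (vertical axis), against the number of CpGs within 5 kb of the gene 5′ end (horizontal axis) for the 10 Sox genes in MGE and CGE, with lines through the median and the 90th percentile of protein-coding genes in 10 equal classes of CpG number. All 10 Sox genes lie to the right of the median of 151 CpGs, and Sox10 lies below the median line in both panels.

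RefSeq promoters were available for 7 of the 10 genes, Sox1, Sox2, Sox21, Sox4, Sox11, Sox12 and Sox8, and those of Sox2, Sox4 and Sox8, 1 of each group, are shown here to let the starts be compared with each other and with that of Sox12 above. Each run is the 250 bases before the RefSeq start, read 5′ to 3′ on the gene's strand, with matches to 5 short motifs in capitals. The motifs, searched on both strands, were the GC box GGGCGG, the CCAAT box CCAAT, the TATA box TATAAA and the SOX cores ACAAAG and ACAATG, and none of these holds another. The Sox2 run is chr3:34649745-34649994 on the plus strand, that of Sox4 chr13:28953700-28953949 on the minus strand and that of Sox8 chr17:25570687-25570936 on the minus strand, all in GRCm38.p6.
Sox2: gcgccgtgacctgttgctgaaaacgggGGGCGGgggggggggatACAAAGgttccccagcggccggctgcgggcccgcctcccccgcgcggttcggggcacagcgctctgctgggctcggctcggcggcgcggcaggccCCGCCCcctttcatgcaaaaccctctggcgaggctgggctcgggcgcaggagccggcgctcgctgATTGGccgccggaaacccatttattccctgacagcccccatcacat
Sox4: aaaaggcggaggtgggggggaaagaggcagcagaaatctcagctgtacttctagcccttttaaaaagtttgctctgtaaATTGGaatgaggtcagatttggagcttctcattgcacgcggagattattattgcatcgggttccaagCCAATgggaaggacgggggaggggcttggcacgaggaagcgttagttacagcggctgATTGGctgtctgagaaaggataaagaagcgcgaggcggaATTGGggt
Sox8: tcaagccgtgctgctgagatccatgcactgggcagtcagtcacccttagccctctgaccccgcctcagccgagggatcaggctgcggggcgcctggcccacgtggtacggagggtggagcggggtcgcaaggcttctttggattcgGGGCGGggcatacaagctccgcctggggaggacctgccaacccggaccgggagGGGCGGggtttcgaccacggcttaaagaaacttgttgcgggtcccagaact
Sox2 had 2 GC boxes, 1 CCAAT box and 1 ACAAAG, and its RefSeq start lies at −410 bases from the GENCODE start. Sox4 had 4 CCAAT boxes and no GC box, with 11 CpGs. Sox8 had 2 GC boxes and no CCAAT box, with 18 CpGs. In the Sox12 run printed above there were 3 GC boxes, 2 of them overlapping, and 1 CCAAT box. TATAAA and ACAATG were found in none of the 7. Of the 32851 promoters of the table, 32.7% held GGGCGG, 33.8% CCAAT, 12.4% TATAAA, 16.5% ACAAAG and 10.7% ACAATG. A match describes these letters only. The Sox2 and Sox8 runs lay wholly inside a peak in all 4 lists, while 111 of the 250 bases before Sox4 did in LGE and 129 in CGE, against all 250 in MGE and CTX.

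The 10 other Sox genes of the annotation were not alike. A peak was found for 9 of 10 in CGE, 8 in MGE, 8 in CTX and 7 in LGE. Of all protein-coding genes 64.6%, 65.0%, 63.8% and 64.2% had one in these lists. Sox5 and Sox6, SoxD genes of neuronal and glial development, ranked at the 98.96th percentile or above in every list. Sox5 had 3124, 4718, 4698 and 4277 covered bases in MGE, LGE, CGE and CTX, and Sox6 had 3966, 5879, 5711 and 3830. Sox13, the remaining SoxD gene, had 2022, 1837, 2447 and 1961. Of the SoxF genes, which act in endothelium, Sox17 had 498, 1959, 1598 and 801 bases and Sox18 had 134, 1390, 1494 and 0, and Sox7 had no peak in MGE. Sox17 was above Sox13 in LGE and below it in the other 3 lists. Sox14, a SoxB2 gene like Sox21, had 244 bases in MGE, 420 in CGE, 208 in CTX and no peak in LGE. Sox15 also had none in LGE, and Sry had none in any list.

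Of 20 partners and targets named for these factors, 19 had a peak in MGE, LGE and CGE and 18 in CTX. Pou5f1, the partner of Sox2 in pluripotent cells, had none in any list, and Dcx, a neuronal microtubule gene, had none in CTX. The POU3 genes, which encode neural partners of SoxB1, all had peaks in every list. Nfib was the most covered of the 20 in MGE with 3556 bases, and Pax6, which encodes a homeodomain factor of cortical and LGE progenitors, in LGE, CGE and CTX with 5724, 6739 and 5534, against 1062 in MGE. Nes, expressed in progenitors, had 3553 bases in LGE and 3533 in CGE, with 2417 in MGE and 2918 in CTX. Hes5, a Notch target of progenitors, had 4279 in CGE and 3986 in LGE, with 2500 in MGE and 3131 in CTX. Tubb3, a neuronal tubulin gene, had 3855 bases in CGE and 3537 in LGE, with 2255 in MGE and 2019 in CTX.

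Markers of the cell types these genes are known from were read from the same lists. The counts below stand beside 63.8% to 65.0% of all protein-coding genes with a peak in a list, and 61.3% in all 4. All 8 progenitor genes had a peak in every list, the most covered being Hes5 in MGE and Pax6 elsewhere. All 8 neuron genes had one in MGE, LGE and CGE and 7 in CTX, with Elavl3 most covered in MGE at 2902 bases, Map2 in LGE and CGE at 4730 and 6913 and Elavl4 in CTX at 2857. Of 7 oligodendrocyte lineage genes 6 had a peak in every list, and Mog, a myelin gene, had none. Olig2, the most covered in MGE and LGE with 2621 and 2706 bases, had 2771 in CGE and 283 in CTX. Pdgfra was most covered in CGE with 3833 bases and Mbp in CTX with 1213. Of 6 astrocyte genes 4 had a peak in CTX, 3 in MGE, 2 in LGE and 2 in CGE, with Aqp4 and S100b without one in any list. Aldh1l1 also lacked one outside CTX, and Gfap in LGE and CGE. The glutamate transporter genes Slc1a2 and Slc1a3 had a peak in every list. Slc1a2 was the most covered in MGE and CGE with 973 and 2097 bases, and had 1580 in LGE and 983 in CTX. Slc1a3 was the most covered in LGE and CTX with 1945 and 1083, and had 893 in MGE and 1434 in CGE.

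Neural crest genes had a peak for 5 of 7 in MGE and CGE and 4 of 7 in LGE and CTX. Of all protein-coding genes 65.0% had one in MGE, 64.6% in CGE, 64.2% in LGE and 63.8% in CTX. Foxd3 and Tfap2b, which define the crest, were at 0 throughout, and Pax3 was at 0 in LGE and CTX. The most covered were Ednrb in MGE with 1316 bases, Tfap2a in LGE and CGE with 2195 and 3523, and Erbb3 in CTX with 1433. Their summed covered bases were 8315 in CGE, 6256 in LGE, 5110 in CTX and 3973 in MGE, in lists whose peaks differ in width. Of 5 endothelial genes 3 had a peak in MGE and 2 in each other list, with Kdr the most covered at 1117 to 1294 outside CTX and 1067 in CTX, with Cdh5 and Tek at 0 in every list and Pecam1 at 0 outside MGE. Microglia and blood genes had a peak for 1 of 6 in each list, Spi1, and Csf1r, Cx3cr1, Aif1, Gata1 and Ptprc were at 0. The part of such cells in the peaks of Sox10, Sox17 or Sox18 was not tested.

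Of 11 genes of the dissected regions, all had a peak in MGE, LGE and CGE, and 9 had one in CTX, where Nkx2-1 and Lhx8 were at 0. Nkx2-1, which defines the MGE, had 3262 bases in MGE, 2934 in LGE and 3804 in CGE. By percentile within the list the order was another, with Nkx2-1 at the 99.2nd in MGE, the 97.8th in CGE and the 95.7th in LGE. Emx1, a gene of the cortex, was the most covered of the 11 genes in CTX with 2969 bases, and had 3337 in LGE, 3453 in CGE and 495 in MGE. Its percentile was highest in CTX, at the 98.5th, with the 97.2nd in LGE, the 96.8th in CGE and the 41.8th in MGE. Tbr1 and Eomes, also genes of the cortex, had 429 and 445 bases in MGE, 2878 and 2831 in LGE, 2945 and 2878 in CGE, and 1187 and 1699 in CTX. Their percentiles in CTX, the 72.8th and the 88.8th, stayed below those in LGE, the 95.4th and the 95.1st, and in CGE, the 94.4th and the 94.1st. Neurod6, the remaining gene of the cortex in the list, had 242 bases in CTX and 328 in MGE, with 584 in CGE and 1132 in LGE. MGE was the lowest list for Emx1, Tbr1 and Eomes, and CTX was for Neurod6. Nr2f2, a gene of the CGE, led in the other 3 lists with 12460 bases in CGE, 5401 in LGE and 3700 in MGE, against 2208 in CTX.

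Genes whose percentiles over the 4 lists came nearest to each group's medians were sought among all protein-coding genes outside the Sox family. For SoxB they were Ankrd17, Lasp1 and Ank1, with mean absolute differences of 0.186, 0.244 and 0.366 percentile points. For SoxC they were Elmsan1, Ehmt2 and Bcl9, with 0.169, 0.185 and 0.222. For SoxE they were Tox, Slc6a6 and Mpped1, with 1.21, 1.36 and 1.42. Likeness over 4 values is a description of these lists only.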

How the data were processed

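H3K4me3 was measured by CUT&Tag in 12 libraries of 4 forebrain regions. Reads were aligned by the authors with Bowtie2 (GRCm38/mm10), who then filtered out blacklisted regions and, with Picard, PCR duplicates, merged each region's replicates with SAMtools and called broad peaks with MACS, whose version, threshold and control are not given in the sources used here. The lists are headerless, with 9 columns. The authors' fold enrichment is a ratio to the background the caller estimated. The deposited −log10 q can depend on depth, which was not tested here. Both were therefore ranked only within a list, except that 1 alternative sets the same minimum −log10 q in all lists. Some peak numbers are missing from each list (31 in CTX, 33 in MGE, 59 in LGE and 64 in CGE), and 0 of these gaps span a window of the 10 genes.

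Peaks that shared at least 1 bp with the 5 kb either side of any GENCODE M21 TSS were counted in Python 3.11.15 with numpy 2.4.6, and figures were drawn with matplotlib 3.10.9. Percentiles are among 21951 protein-coding genes, and CpG counts used the GRCm38.p6 sequence, without the mitochondrial genes. On simulated lists, covered bases and ranks equalled those from single-base counting in 200 of 200 runs. Positions are 1-based. No tests were made, since each region has 1 merged list. The members, the gene lists and the rules were chosen with earlier results of these data known. Named were the 10 genes, 6 other Sox genes with their values, the genes of each list without a peak in 1 or more regions, the most covered gene of each list, and the 3 genes nearest to each group. The POU3 genes, Nes, Tubb3, Lhx6, Tbr1, Eomes and Neurod6 were named besides, after their values were seen. In the oligodendrocyte lineage and neural crest lists, 1 gene each is not reported here and is left out of the counts. Some genes stand in several lists (Nes, Fabp7, Hes5, Pax6, Tubb3, Dcx, Olig2 and Mbp among the partners and targets). The alternatives were windows of 2 and 10 kb, the gene 5′ end only, a −log10 q of at least 2, lists limited to 17284 peaks by fold, peaks less than 1 kb apart joined, a minimum width of 243 bp, the share of the window covered, the highest fold, the within-list percentile, ranks among all 55450 annotated genes, and at least 50% of a peak inside the window.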

Additional observations from a re-analysis of the deposited data

How the results depend on the processing

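No value has a replicate error, and leaving out a replicate was not possible because the replicates had been merged. No paired analysis was possible because the deposited values are of merged replicates. Depth is stated by the study for single libraries and differs between regions, but the reads kept in each merged list are not known here, and the part of depth in the number, width and edges of the peaks was not tested. Of 155 alternative values of the counts, 133 stayed within 1.5 times and 22 moved further, and the cause was not tested unless named. With SoxE taken without Sox10, an alternative chosen after seeing the data, SoxB and SoxC stood above SoxE in 4 of 4 lists.

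Limiting every list to 17284 peaks by fold removes peaks of low fold from all lists but LGE. It left 4 of the 10 genes with a peak in MGE, 2 in the most covered 10% in MGE and 5 in CTX, and 0 genes most covered in MGE (2.01% of protein-coding genes with a peak), where Sox10 then had no peak and Sox4 was most covered in CGE. Each order of the group medians then held in 3 lists. A −log10 q of at least 2 also removed the Sox10 peak and left 1 gene most covered in MGE (2.41%). Ranked by the highest fold of a peak, the members in the top 10% were 0 in CTX, 0 in MGE, 0 in LGE and 0 in CGE. By the percentile of that fold, the highest list was MGE for 2 genes (28.2% of protein-coding genes with a peak), LGE for 0 (19.8%), CGE for 1 (26.8%) and CTX for 7 (25.1%), and SoxC stood above SoxB in 1 list. By the within-list percentile of covered bases the highest list was MGE for 5 genes (32.9%), LGE for 4 (18.5%), CGE for 0 (17.2%) and CTX for 1 (31.4%). Windows of 10 kb gave LGE 1 gene (17.0%) and CTX 1 (5.58%) as the most covered list, with SoxC above SoxB in 1 list. Windows of 2 kb gave CTX 1 gene (4.34%) and SoxB above SoxE in 2 lists.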
